A study of Mus musculus with 26 samples.

Results

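Major histocompatibility complex (MHC) class I antigen presentation was described here through 8 genes, chosen by their symbol in the deposited tables of a mouse Huntington's disease series: the heavy chains H2-D1 and H2-K1, their light chain B2m, the peptide transporter subunits Tap1 and Tap2, the loading factor Tapbp, and the immunoproteasome subunits Psmb8 and Psmb9. All 8 were listed in each of the 5 tables, among 12556 genes listed in every table. RNA was sequenced from the striatum, the forebrain nucleus most affected in Huntington's disease, in 26 libraries of 9 groups. R6/1 mice, which carry a transgene with the first exon of human huntingtin bearing an expanded CAG repeat, were set against wild type (WT) mice at 4 weeks and at 8 weeks, with 3 libraries per group. CHL2 mice, a line in which the expanded repeat lies in the endogenous huntingtin gene, were set against WT mice at 1 year, with 3 libraries per group. At 10 weeks the groups were R6/1 mice given an adeno-associated virus (AAV) for expression of Elk-1, an ETS family transcription factor (4 libraries), R6/1 mice given a control AAV (2 libraries) and WT mice given the control AAV (2 libraries). The table rows call the control vector mCherry. The sources used here do not give the promoter of the vectors, the animals' sex, the repeat lengths or whether each library is a separate animal, so the deposited p-values speak for the scatter of these libraries alone, and that scatter may be technical.

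MHC class I molecules show peptides from inside the cell to CD8 T cells. The proteasome cuts proteins into peptides, the TAP transporter moves the peptides into the endoplasmic reticulum, tapasin and other chaperones help load them onto a heavy chain bound to beta-2-microglobulin, and the complex travels to the cell surface. Interferons raise most genes of the pathway, in part through IRF1, and exchange the catalytic subunits of the proteasome for the immunoproteasome forms. In healthy brain, neurons carry little class I, and microglia and endothelial cells carry more.

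Every level below is FPKM (fragments per kilobase of transcript, scaled to the mapped fragments), 1 value per group as deposited, with no value per library, so no SD can be given and groups cannot be compared library by library. A gene is called here where the q-value in the authors' deposited table of that comparison is below 0.05. In mm9 coordinates as listed, 7 of the 8 genes lie on chromosome 17 within 1.41 Mb of the MHC, from Tapbp at 34056422 to the end of H2-D1 at 35462354, with H2-K1 at 34132956 to 34137278, Psmb9 at 34319043 to 34324275, Tap1 at 34324500 to 34334170, Psmb8 at 34335139 to 34338399 and Tap2 at 34341423 to 34353266. B2m is listed on chromosome 2 from 121945843 to 122011925. The listed spans of B2m (66082 bases) and H2-D1 (62316 bases) are far longer than their RefSeq genes in GRCm38.p6 (5396 and 4404 bases), and no other listed gene overlaps any member. H2-D1 and H2-K1 are close paralogs of each other and of further class I genes, so how reads shared between them were assigned is uncertain.

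The promoters of 4 members called at 10 weeks are shown, as genes whose levels moved together there. RefSeq gave a window of 250 bases before to 50 bases after the start site for 7 of the 8 members, with no entry for Tap2. The windows of H2-D1 (chr17:35262844-35263143, plus strand), H2-K1 (chr17:34000298-34000597, minus strand, the first of its start sites), B2m (chr2:122147437-122147736, plus strand) and Tap1 (chr17:34187306-34187605, plus strand) are given 5′ to 3′ in GRCm38.p6, with matches to 4 motifs in capitals.
H2-D1: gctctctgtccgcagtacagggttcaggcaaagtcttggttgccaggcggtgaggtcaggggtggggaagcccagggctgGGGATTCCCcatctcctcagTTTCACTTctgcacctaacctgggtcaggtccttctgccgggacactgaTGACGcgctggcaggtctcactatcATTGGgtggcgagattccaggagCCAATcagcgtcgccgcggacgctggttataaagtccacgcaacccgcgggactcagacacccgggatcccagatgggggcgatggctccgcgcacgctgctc
H2-K1: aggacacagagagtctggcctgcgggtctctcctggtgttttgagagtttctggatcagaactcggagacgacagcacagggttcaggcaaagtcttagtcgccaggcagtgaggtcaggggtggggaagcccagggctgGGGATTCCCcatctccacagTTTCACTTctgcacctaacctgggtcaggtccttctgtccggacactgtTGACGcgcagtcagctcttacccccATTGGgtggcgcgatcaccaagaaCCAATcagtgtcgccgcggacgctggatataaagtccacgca
B2m: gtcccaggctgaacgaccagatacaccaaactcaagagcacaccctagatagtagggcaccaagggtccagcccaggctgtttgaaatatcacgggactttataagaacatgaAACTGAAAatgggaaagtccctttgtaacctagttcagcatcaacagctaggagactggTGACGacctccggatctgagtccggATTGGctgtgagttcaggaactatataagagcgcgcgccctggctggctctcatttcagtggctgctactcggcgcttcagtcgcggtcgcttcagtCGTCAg
Tap1: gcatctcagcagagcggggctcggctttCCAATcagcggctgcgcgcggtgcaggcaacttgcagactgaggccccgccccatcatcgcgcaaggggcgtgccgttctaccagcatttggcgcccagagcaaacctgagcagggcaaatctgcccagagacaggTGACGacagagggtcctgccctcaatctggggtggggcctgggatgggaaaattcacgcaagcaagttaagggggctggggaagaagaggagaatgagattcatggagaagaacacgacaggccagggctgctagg

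The capitals mark, on either strand, an interferon regulatory factor core (AANNGAAA), a kappaB type sequence (GGGATTCCC), a CRE core (TGACG) and a Y box (ATTGG), motifs known from class I promoters and chosen after the sequences were seen. H2-D1 and H2-K1 each hold the kappaB type sequence, then TTTCACTT, then TGACG, then ATTGG, with 20, 49 and 25 bases between successive starts in both. Their windows were identical at 211 of 239 aligned positions (88.3%). B2m holds AACTGAAA, TGACG and ATTGG in the same order, without the kappaB type sequence. Tap1 and Psmb9 are transcribed in opposite directions from windows that overlap by 275 bases, so both hold the same CRE core and Y box. Tapbp holds Y boxes, and Psmb8 holds none of these motifs. Across 32851 promoter windows of the same length, the interferon regulatory factor core occurred in 23.9%, the kappaB type sequence in 0.353%, the CRE core in 20.8% and the Y box in 37.4%. The ETS consensus CCGGAAG, the only ETS sequence searched for, occurred in 8.86% of the windows and in none of those of the members. Shorter or variant ETS sequences were not counted and Tap2 had no window, so whether the members hold other ETS sites was not tested.

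B2m had the highest level of the 8 genes in every group, followed by H2-D1, H2-K1 and Tapbp in that order, and Tap1 or Psmb9 had the lowest level in each uninjected group. Among the 6 uninjected groups, B2m lay between 69.1 and 133 FPKM, H2-D1 between 16.4 and 31.1 FPKM, H2-K1 between 12.9 and 22.3 FPKM and Tapbp between 11.3 and 12.3 FPKM. Tap2 lay between 3.28 and 5.68 FPKM, Psmb8 between 2.12 and 4.66 FPKM, Psmb9 between 0.977 and 2.56 FPKM and Tap1 between 0.855 and 1.82 FPKM. Among the uninjected groups, every member but Tapbp had its highest level in WT mice of 1 year. Across all 9 groups the highest level was 12.97 times the lowest for Psmb9, 10.99 times for H2-D1, 5.93 times for Psmb8, 5.85 times for H2-K1, 5.68 times for Tap1 and 4.42 times for B2m, but 2.23 times for Tap2 and 1.72 times for Tapbp. The tables were normalized separately, and the injected groups differ from the others in injection, age and table, which cannot be told apart. With no value per library, it cannot be said which neighbours in these orders differ beyond the spread.

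**Figure D1:**
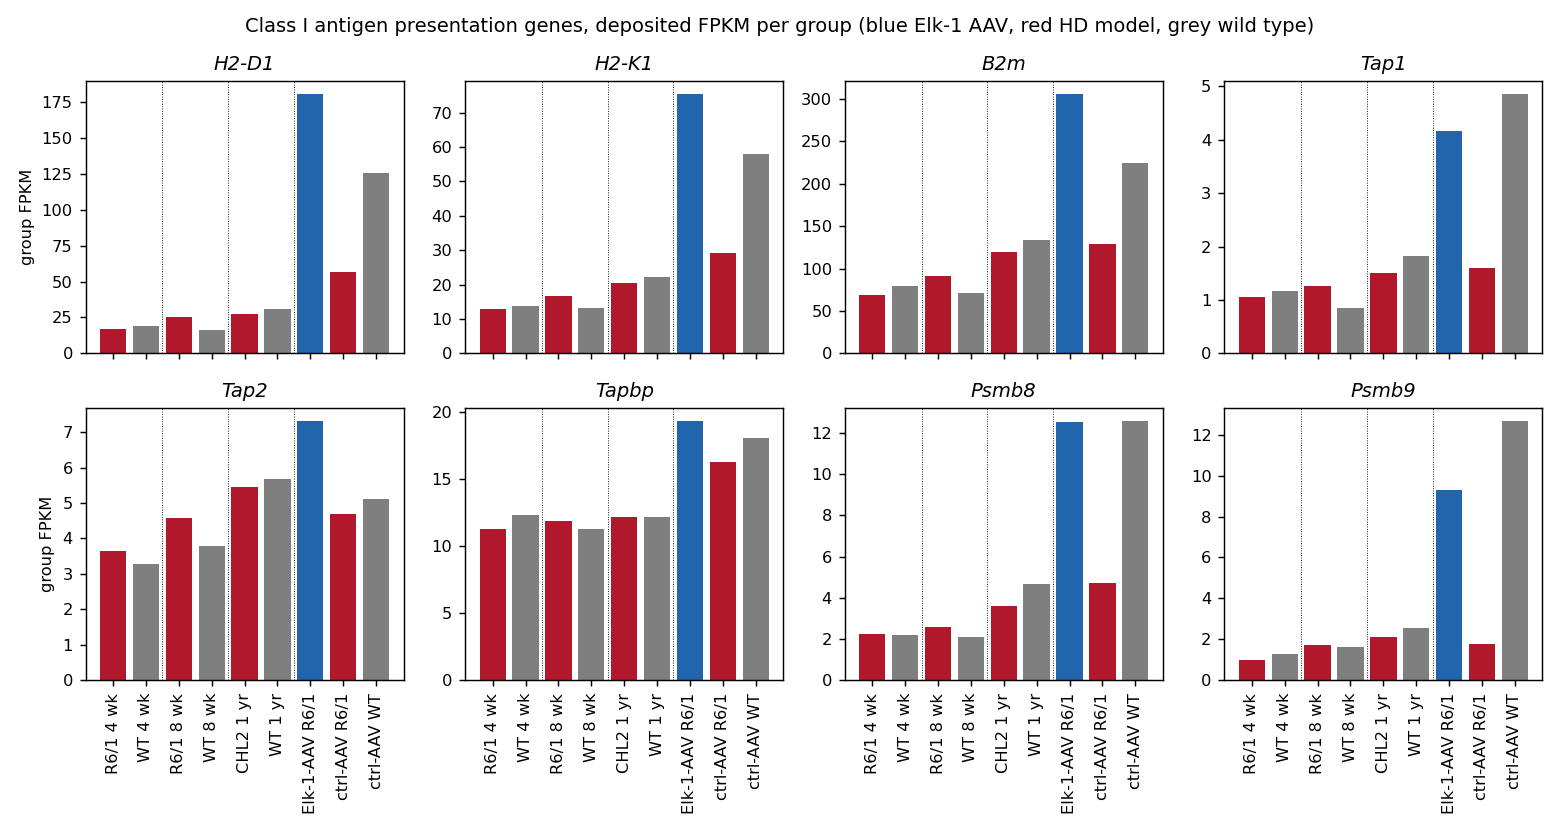
Deposited group FPKM of the 8 class I antigen presentation genes, 1 panel per gene with its own linear axis from 0. Bars are the single pooled values of the 9 groups, with no error bars because no value per library was used. Dotted lines part the uninjected comparisons from each other and from the 3 injected groups. Of the injected groups, the Elk-1-AAV R6/1 bar comes from the Elk-1 table and the others from the genotype table. Blue is Elk-1 AAV, red the Huntington's disease model and grey WT. H2-D1, H2-K1 and B2m reach their highest bar in Elk-1-AAV R6/1 mice, and the control-AAV R6/1 bar is the lowest of the 3 injected groups for all 8 genes.

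The first comparison asks whether the genes differ in young R6/1 striatum. At 4 weeks no member was called by Cuffdiff, and none had an unadjusted p under 0.05, where 0.468% of the 14539 genes of the authors' deposited table were called in either direction. H2-D1 had 16.8 FPKM in R6/1 mice, against 18.9 FPKM in WT mice. H2-K1 had 12.9 FPKM in R6/1 mice and 13.9 FPKM in WT mice, and B2m had 69.1 FPKM in R6/1 mice and 79.9 FPKM in WT mice. Of the low genes, Psmb9 had 0.977 FPKM in R6/1 mice and 1.30 FPKM in WT mice, the widest gap in fold among the members. Values were lower in R6/1 mice for 6 members and higher for Tap2 and Psmb8. The median change on the log2(FPKM + 1) scale was -0.11 over the members and 0.0012 over all genes. None of the 23 listed interferon-stimulated genes and none of the 13 listed other class I heavy chains was called, with 0 and 2 of them at an unadjusted p under 0.05.

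At 8 weeks, when R6/1 striatum had lower levels of 9 of 10 projection neuron markers by the same threshold, H2-D1 was the only member called. It had 25.6 FPKM in R6/1 mice, against 16.4 FPKM in WT mice, a log2 fold change of 0.64 with q = 0.00160 in the authors' deposited table. The other heavy chain, H2-K1, had 16.8 FPKM in R6/1 mice and 13.2 FPKM in WT mice (p = 0.0283, q = 0.244 in the authors' deposited table). B2m, the shared light chain, had 91.5 FPKM in R6/1 mice and 71.8 FPKM in WT mice (p = 0.008, q = 0.103 in the authors' deposited table). The 2 classical heavy chains and their light chain thus had higher values together in R6/1 mice, 1 of them past the threshold.

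The transporter subunit Tap1 had 1.27 FPKM in R6/1 mice and 0.855 FPKM in WT mice at 8 weeks, and its partner Tap2 had 4.57 FPKM in R6/1 mice and 3.78 FPKM in WT mice. Tapbp, which encodes tapasin, had 11.9 FPKM in R6/1 mice and 11.3 FPKM in WT mice. The immunoproteasome subunit Psmb8 had 2.60 FPKM in R6/1 mice and 2.12 FPKM in WT mice, and Psmb9 had 1.71 FPKM in R6/1 mice and 1.65 FPKM in WT mice. None of these 5 was called. All 8 values were higher in R6/1 mice and 1 member was called higher, where 0.789% of 14320 genes were called higher and 6.12% were called in either direction. The members' median change was 0.26, against 0.0059 over all genes.

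Other genes of the pathway at 8 weeks gave few calls. Ifit1 was the 1 called gene of 22 listed interferon-stimulated genes, at 1.47 FPKM in R6/1 mice and 0.705 FPKM in WT mice (q = 0.0366 in the authors' deposited table), while 21 of the 22 had higher values in R6/1 mice. Psme1, a subunit of the proteasome activator, had 35.7 FPKM in R6/1 mice and 24.8 FPKM in WT mice (q = 0.0672 in the authors' deposited table). The third immunoproteasome subunit, Psmb10, had 19.4 FPKM in R6/1 mice and 14.9 FPKM in WT mice, and the peptide-trimming enzyme Erap1 had 3.42 FPKM in R6/1 mice and 2.54 FPKM in WT mice, neither called. None of 14 listed other class I heavy chains was called, with 1 at an unadjusted p under 0.05.

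Markers of 2 cell types known to carry class I gave no calls at 8 weeks. The 20 microglial markers summed to 480 FPKM in R6/1 mice and 483 FPKM in WT mice, with 13 of 20 lower in R6/1 mice, and none of them or of 15 endothelial markers had an unadjusted p under 0.05. Choroid plexus and ependymal markers fell, with 7 of 12 called lower and a sum of 603 FPKM in R6/1 mice and 1550 FPKM in WT mice. Of 9 mural cell markers, 4 were higher and 5 lower, with a median change of -0.074 and 1 called, Acta2, at 11.7 FPKM in R6/1 mice and 5.61 FPKM in WT mice. Meningeal markers were higher for 10 of 12, with 2 called higher and 2 called lower. The part of these tissues in the values of the members was not tested, and in bulk striatum fewer cells of a type and less RNA per cell cannot be told apart.

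In CHL2 mice at 1 year no member was called by Cuffdiff, and none had an unadjusted p under 0.05, where 3.65% of 14402 genes were called in either direction. B2m had 120 FPKM in CHL2 mice and 133 FPKM in WT mice. H2-D1 had 27.7 FPKM in CHL2 mice and 31.1 FPKM in WT mice, and H2-K1 had 20.4 FPKM in CHL2 mice and 22.3 FPKM in WT mice. Tap1 had 1.50 FPKM in CHL2 mice and 1.82 FPKM in WT mice, and Psmb8 had 3.59 FPKM in CHL2 mice and 4.66 FPKM in WT mice. The heavy chains, light chain and immunoproteasome subunits therefore had lower values in CHL2 mice, all short of the threshold. Values were lower for 7 members, with Tapbp at 12.2 FPKM in both groups. The members' median change was -0.16, against 0.0020 over all genes, and -0.077 after rescaling both groups without small RNA rows.

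The 20 microglial markers also had lower values in CHL2 mice in all 20 cases, with a sum of 573 FPKM in CHL2 mice and 673 FPKM in WT mice, a median change of -0.20, none called and 6 at an unadjusted p under 0.05. Striatal projection neuron markers were called lower for 10 of 10, with a median change of -0.83. Blood markers were called lower for 2 of 5 and summed to 33.9 FPKM in CHL2 mice and 72.3 FPKM in WT mice. Endothelial markers were lower for 11 of 15, with none called and 3 at an unadjusted p under 0.05, and meningeal markers were higher for 10 of 11 listed, with 2 called. The part of these shifts in the members' values was not tested. Of the 8 listed class II genes, Cd74, the invariant chain, was called higher, at 4.59 FPKM in CHL2 mice and 2.65 FPKM in WT mice (q = 0.0466 in the authors' deposited table). None of 24 listed interferon-stimulated genes was called, with 5 at an unadjusted p under 0.05 and 19 lower in CHL2 mice.

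**Figure D2:**
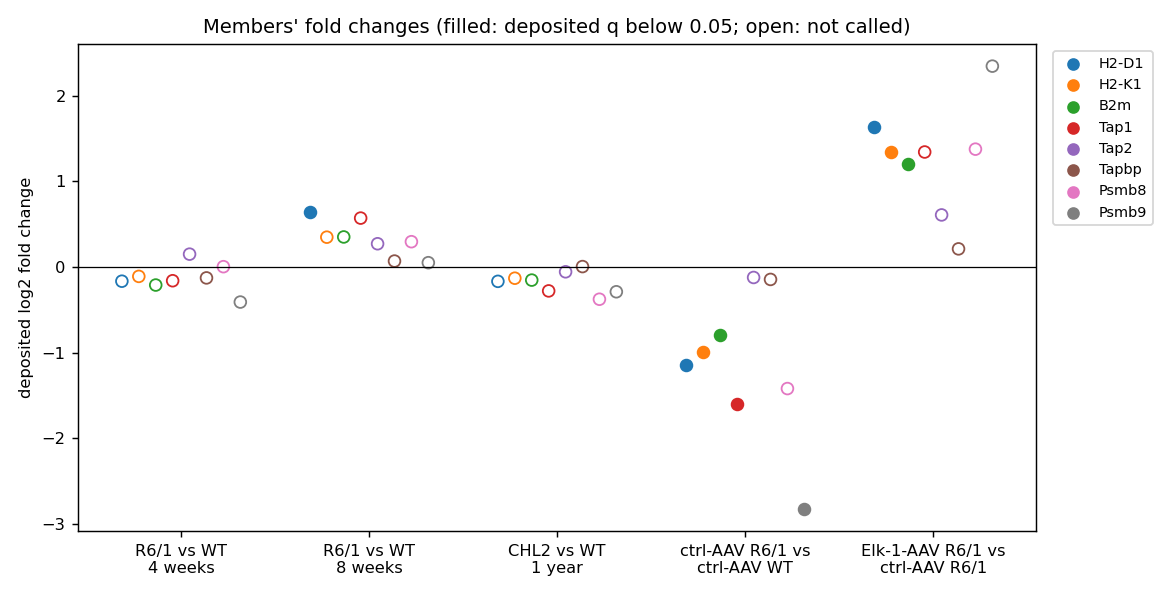
Deposited log2 fold change (vertical axis) of each of the 8 genes in each of the 5 comparisons (horizontal axis), with the group named first over the group named second. Filled points have a deposited q below 0.05 and open points do not; there are no error bars because each group has 1 pooled value. H2-D1 is the 1 filled point at 8 weeks, 5 genes are filled below 0 for control-AAV R6/1 against control-AAV WT, and 3 are filled above 0 for Elk-1-AAV R6/1 against control-AAV R6/1.

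At 10 weeks, R6/1 mice given the control AAV had lower levels of class I genes than WT mice given the same vector. H2-D1 fell to 56.6 FPKM in control-AAV R6/1 mice, against 125 FPKM in control-AAV WT mice, a log2 fold change of -1.15 at q = 0.00312 (in the authors' deposited table). H2-K1 fell to 29.1 FPKM in control-AAV R6/1 mice, against 57.9 FPKM in control-AAV WT mice, with a log2 fold change of -0.99 at q = 0.00312 (in the authors' deposited table). B2m fell to 129 FPKM in control-AAV R6/1 mice, against 224 FPKM in control-AAV WT mice, with a log2 fold change of -0.80 and the same q in the authors' deposited table. The level in control-AAV R6/1 mice was thus 0.451 of that in control-AAV WT mice for H2-D1, 0.503 for H2-K1 and 0.576 for B2m.

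Tap1 fell to 1.60 FPKM in control-AAV R6/1 mice, against 4.86 FPKM in control-AAV WT mice (a log2 fold change of -1.60 at q = 0.0327 in the authors' deposited table). Its partner in the transporter, Tap2, had 4.69 FPKM in control-AAV R6/1 mice and 5.10 FPKM in control-AAV WT mice (q = 0.998 in the authors' deposited table). Tapbp had 16.3 FPKM in control-AAV R6/1 mice and 18.0 FPKM in control-AAV WT mice (q = 0.979 in the authors' deposited table). The 3 genes of peptide transport and loading thus differed in size of change, and the difference between them was not tested.

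Psmb9, the immunoproteasome subunit that replaces Psmb6, had the largest fold change of the members, at 1.78 FPKM in control-AAV R6/1 mice and 12.7 FPKM in control-AAV WT mice (a log2 fold change of -2.83 at q = 0.0300 in the authors' deposited table). Psmb8, which replaces Psmb5, had 4.71 FPKM in control-AAV R6/1 mice and 12.6 FPKM in control-AAV WT mice, short of the threshold (a log2 fold change of -1.42 at q = 0.0602 in the authors' deposited table). The unadjusted Cuffdiff p of Psmb8 in that table was 0.00205. In all, 5 members were called lower and none higher, where 2.51% of 12980 genes were called lower and 3.24% in either direction. All 8 values were lower in control-AAV R6/1 mice, with a median change of -1.05 against 0.014 over all genes.

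The other gene groups around the pathway moved unevenly in this comparison. Of 14 listed other class I heavy chains, 2 were called, both lower: H2-Q4 at 4.45 FPKM in control-AAV R6/1 mice and 11.9 FPKM in control-AAV WT mice, and H2-T23 at 3.81 FPKM in control-AAV R6/1 mice and 20.4 FPKM in control-AAV WT mice. These paralogs may share reads with each other and with the members. Irf1, the interferon-induced activator of class I genes, was called lower, at 2.30 FPKM in control-AAV R6/1 mice and 6.86 FPKM in control-AAV WT mice (q = 0.0135 in the authors' deposited table).

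Interferon-stimulated genes were lower in control-AAV R6/1 mice for all 21 listed, with 7 of them called and a median change of -0.90. Igtp, a GTPase induced by interferon gamma, had 2.94 FPKM in control-AAV R6/1 mice and 25.6 FPKM in control-AAV WT mice, and Iigp1, of the same family, had 0.565 FPKM in control-AAV R6/1 mice and 7.36 FPKM in control-AAV WT mice. Irgm2 had 0.652 FPKM in control-AAV R6/1 mice and 5.22 FPKM in control-AAV WT mice, and the guanylate-binding protein gene Gbp2 had 2.12 FPKM in control-AAV R6/1 mice and 9.40 FPKM in control-AAV WT mice. Of 8 listed genes of class II presentation, which shows peptides to CD4 T cells, 4 were called lower: Cd74, H2-Aa, H2-Ab1 and H2-Eb1. Cd74 had 18.2 FPKM in control-AAV R6/1 mice and 103 FPKM in control-AAV WT mice, and H2-Ab1 had 7.70 FPKM in control-AAV R6/1 mice and 45.5 FPKM in control-AAV WT mice.

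General parts of the pathway did not give calls, and neither did the immunoproteasome subunit Psmb10 or the proteasome activator subunits. None of the 10 further loading and transport genes was called or had an unadjusted p under 0.05; calreticulin (Calr) had 288 FPKM in control-AAV R6/1 mice and 261 FPKM in control-AAV WT mice, and the lectin chaperone gene Canx had 121 FPKM in control-AAV R6/1 mice and 106 FPKM in control-AAV WT mice. The constitutive proteasome subunits Psmb5, Psmb6 and Psmb7 had a median change of -0.0058, with none at an unadjusted p under 0.05. Psmb10 had 42.2 FPKM in control-AAV R6/1 mice and 55.8 FPKM in control-AAV WT mice, and was not called. The activator subunits Psme1 and Psme2 had higher values in control-AAV R6/1 mice, at 39.5 and 7.90 FPKM, against 32.5 and 4.11 FPKM in control-AAV WT mice, and were not called.

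Several cell type markers moved in the same comparison. Striatal projection neuron markers were lower for all 10, with 8 called, a median change of -0.95 and a sum of 1131 FPKM in control-AAV R6/1 mice and 2371 FPKM in control-AAV WT mice. Microglial markers were lower for 16 of 20, with none called, 1 at an unadjusted p under 0.05, a median change of -0.16 and a sum of 556 FPKM in control-AAV R6/1 mice and 675 FPKM in control-AAV WT mice. Endothelial markers were lower for 13 of 14 listed, with none called, 4 at an unadjusted p under 0.05 and a median change of -0.32. Choroid plexus and ependymal markers were higher for all 12, with 5 called, 11 at an unadjusted p under 0.05 and a median change of 1.29. They summed to 1625 FPKM in control-AAV R6/1 mice and 359 FPKM in control-AAV WT mice. Meningeal markers were higher for all 11 listed, with 3 called, all 11 at an unadjusted p under 0.05 and a median change of 0.98. Their sum was 161 FPKM in control-AAV R6/1 mice and 72.6 FPKM in control-AAV WT mice. Of 13 lymphocyte markers 2 were listed, and the T cell receptor genes Cd3d, Cd3e and Cd3g were not among them. Cd4, which the uninjected groups list too, was called lower at 5.50 FPKM in control-AAV R6/1 mice and 14.2 FPKM in control-AAV WT mice. Without injection, 1 of 3 listed lymphocyte markers was also called lower in R6/1 mice at 8 weeks, and 1 of 3 in CHL2 mice at 1 year. Xist, expressed from the inactive X chromosome of females, was called higher, at 29.0 FPKM in control-AAV R6/1 mice and 12.8 FPKM in control-AAV WT mice. The part of these shifts in the class I values was not tested.

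The last comparison sets R6/1 mice given the Elk-1 AAV against R6/1 mice given the control AAV. It shares its control-AAV R6/1 group with the comparison before, so the 2 are not independent. Whether a difference comes from Elk-1 or from another feature of the vectors was not tested. Elk1 itself was called higher, at 30.1 FPKM in Elk-1-AAV R6/1 mice and 15.1 FPKM in control-AAV R6/1 mice (q = 0.0122 in the authors' deposited table). H2-D1 rose to 180 FPKM in Elk-1-AAV R6/1 mice, against 58.0 FPKM in control-AAV R6/1 mice, a log2 fold change of 1.64 at q = 0.0122 (in the authors' deposited table). H2-K1 rose to 75.4 FPKM in Elk-1-AAV R6/1 mice, against 29.8 FPKM in control-AAV R6/1 mice, with a log2 fold change of 1.34 and the same q in the authors' deposited table. B2m rose to 305 FPKM in Elk-1-AAV R6/1 mice, against 132 FPKM in control-AAV R6/1 mice, a log2 fold change of 1.21, again with q = 0.0122 in the authors' deposited table. These 3 genes of the surface complex were the members called, and 0.0122 is the lowest q that this table holds.

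The other 5 members had higher values in Elk-1-AAV R6/1 mice but were not called. Psmb9 had 9.29 FPKM in Elk-1-AAV R6/1 mice and 1.83 FPKM in control-AAV R6/1 mice, the largest fold change of the members (a log2 fold change of 2.35 at q = 0.159 in the authors' deposited table). Psmb8 had 12.5 FPKM in Elk-1-AAV R6/1 mice and 4.82 FPKM in control-AAV R6/1 mice (a log2 fold change of 1.38 at q = 0.0697 in the authors' deposited table). Tap1 had 4.17 FPKM in Elk-1-AAV R6/1 mice and 1.64 FPKM in control-AAV R6/1 mice (a log2 fold change of 1.34 at q = 0.141 in the authors' deposited table). Tap2 and Tapbp had the smallest fold changes, at 7.32 and 19.3 FPKM in Elk-1-AAV R6/1 mice and 4.80 and 16.7 FPKM in control-AAV R6/1 mice. In all, 3 members were called higher and none lower, where 0.299% of 12701 genes were called higher and 0.575% in either direction. The median change was 1.21 over the members and 0.013 over all genes.

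Of 26 listed interferon-stimulated genes, 14 were called higher in Elk-1-AAV R6/1 mice, with a median change of 1.29. Irf7, a regulator of type I interferon responses, had 10.8 FPKM in Elk-1-AAV R6/1 mice and 1.48 FPKM in control-AAV R6/1 mice. The ubiquitin-like modifier Isg15 had 22.6 FPKM in Elk-1-AAV R6/1 mice and 4.59 FPKM in control-AAV R6/1 mice. Ifit1, which binds viral RNA, had 7.92 FPKM in Elk-1-AAV R6/1 mice and 1.13 FPKM in control-AAV R6/1 mice, and Oasl2 had 9.46 FPKM in Elk-1-AAV R6/1 mice and 1.69 FPKM in control-AAV R6/1 mice. All 26 values were higher in Elk-1-AAV R6/1 mice.

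Among 12 listed other class I heavy chains, H2-Q4 was called higher, at 16.2 FPKM in Elk-1-AAV R6/1 mice and 4.56 FPKM in control-AAV R6/1 mice, while H2-T23 had 14.1 FPKM in Elk-1-AAV R6/1 mice and 3.91 FPKM in control-AAV R6/1 mice (q = 0.154 in the authors' deposited table). Irf1 had 4.81 FPKM in Elk-1-AAV R6/1 mice and 2.36 FPKM in control-AAV R6/1 mice (q = 0.469 in the authors' deposited table). Cd74 was the 1 called gene of 6 listed class II genes, at 41.9 FPKM in Elk-1-AAV R6/1 mice and 18.7 FPKM in control-AAV R6/1 mice. Nlrc5, the class I transactivator, was in none of the 5 tables. None of the 10 further loading and transport genes and none of the constitutive proteasome subunits was called or had an unadjusted p under 0.05, and their median changes were 0.044 and -0.026.

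Microglial markers also had higher values in Elk-1-AAV R6/1 mice. Of the 20, 19 were higher and 13 had an unadjusted p under 0.05. The 4 called were the complement genes C1qa, C1qb and C1qc and the protease gene Ctss. C1qa had 131 FPKM in Elk-1-AAV R6/1 mice and 72.1 FPKM in control-AAV R6/1 mice, and the list summed to 884 FPKM in Elk-1-AAV R6/1 mice and 569 FPKM in control-AAV R6/1 mice, with a median change of 0.51. Of 11 listed endothelial markers, 10 were higher and 5 had an unadjusted p under 0.05. Ly6c1 was called higher and the median change of the endothelial markers was 0.41. Choroid plexus and ependymal markers summed to 2350 FPKM in Elk-1-AAV R6/1 mice and 1665 FPKM in control-AAV R6/1 mice, with Kl called. Of these 12 markers, 10 were higher and 4 had an unadjusted p under 0.05. Astrocyte markers had a median change of 0.042, with none called and 1 at an unadjusted p under 0.05. Meningeal markers were lower for 9 of 11 listed, with none called, 6 at an unadjusted p under 0.05 and a median change of -0.45. Striatal projection neuron markers were higher for all 10, with none called, 1 at an unadjusted p under 0.05 and a median change of 0.19. Xist had 19.8 FPKM in Elk-1-AAV R6/1 mice and 29.7 FPKM in control-AAV R6/1 mice (p = 0.00535, q = 0.395 in the authors' deposited table). The lymphocyte markers Cd3d, Cd3e, Cd3g and Gzmb were not listed, and 3 of 13 in that list were. Whether these marker shifts have a part in the class I values was not tested, and the 2 groups hold 4 and 2 libraries.

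**Figure D3:**
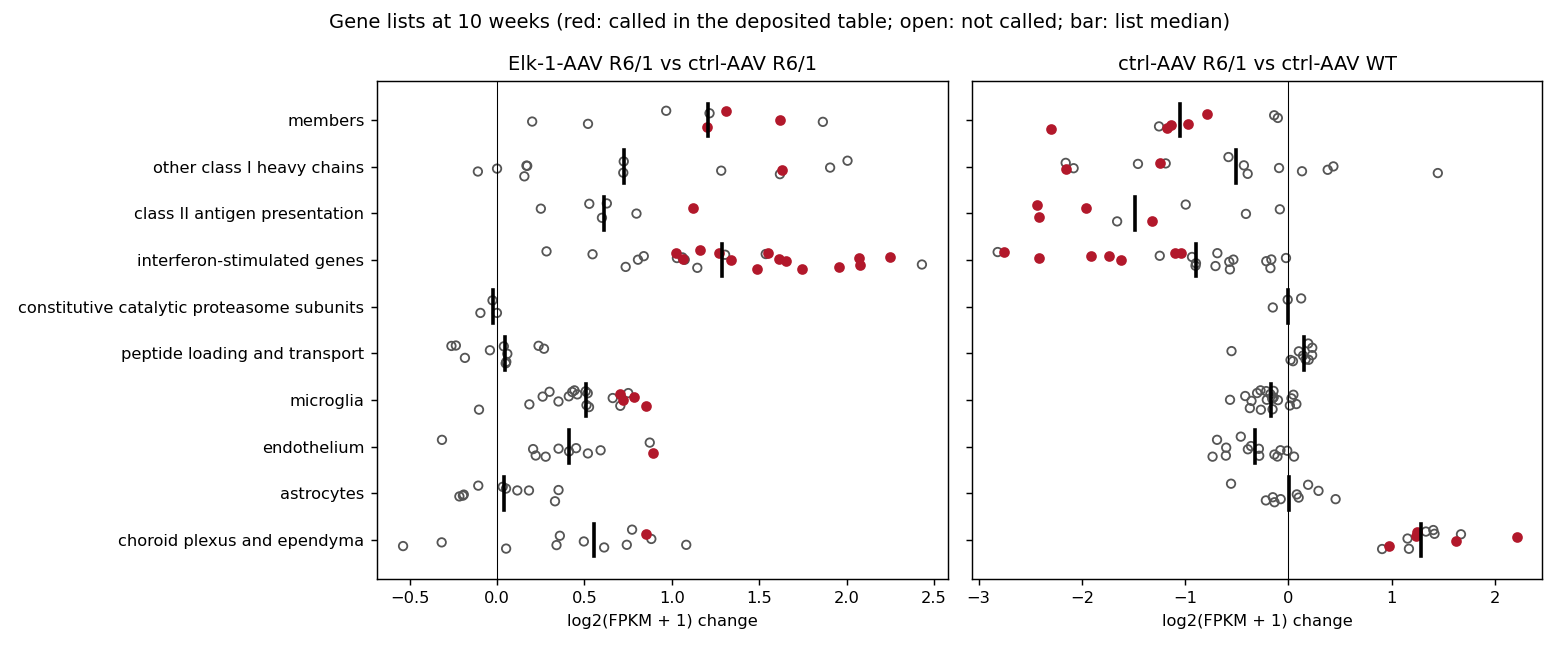
Change in log2(FPKM + 1) (horizontal axis) of each listed gene, by gene list (rows), for Elk-1-AAV R6/1 against control-AAV R6/1 (left) and control-AAV R6/1 against control-AAV WT (right). Red points are called in the deposited table, open points are not, and bars are list medians; the 2 panels have their own horizontal scales. The members' median bar stands at 1.21 on the left and -1.05 on the right, with the interferon-stimulated genes at 1.29 and -0.90, and the constitutive proteasome subunits near 0 in both.

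The values of the 3 injected groups can be set side by side, with no test of Elk-1-AAV R6/1 against control-AAV WT mice. The control-AAV R6/1 group appears in both tables, and its values in the Elk-1 table were 1.02 times those in the genotype table at the median of 12599 genes, so the scales nearly coincide. H2-D1 had 180 FPKM in Elk-1-AAV R6/1 mice, 56.6 FPKM in control-AAV R6/1 mice and 125 FPKM in control-AAV WT mice. For the surface complex, the ratio of Elk-1-AAV R6/1 to control-AAV WT mice was 1.44 for H2-D1, 1.30 for H2-K1 and 1.36 for B2m. For the transporter it was 0.858 for Tap1 and 1.43 for Tap2, and for Tapbp 1.07. For the immunoproteasome it was 0.994 for Psmb8 and 0.733 for Psmb9.

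The balance among the members also differed between injected and uninjected groups. H2-D1 was 1.25 to 1.53 times H2-K1 in the 6 uninjected groups, and 2.39 times in Elk-1-AAV R6/1 mice, 1.94 times in control-AAV R6/1 mice and 2.17 times in control-AAV WT mice. B2m was 2.16 to 2.50 times the sum of H2-D1 and H2-K1 in the uninjected groups, and 1.19 times in Elk-1-AAV R6/1 mice, 1.51 times in control-AAV R6/1 mice and 1.22 times in control-AAV WT mice. Heavy chain transcripts were thus higher relative to the light chain in the injected groups. These ratios carry no test, and the paralogs' shared reads could enter them.

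The immunoproteasome subunits were set against the constitutive subunits that they replace. Psmb8 was 22.2% of Psmb5 in Elk-1-AAV R6/1 mice, 8.54% in control-AAV R6/1 mice and 20.6% in control-AAV WT mice. Psmb9 was 8.05% of Psmb6 in Elk-1-AAV R6/1 mice, 1.55% in control-AAV R6/1 mice and 12.05% in control-AAV WT mice. In the uninjected groups Psmb8 lay between 6.38% and 14.1% of Psmb5, and Psmb9 between 1.45% and 2.89% of Psmb6. At 1 year, Psmb8 was 12.7% of Psmb5 in CHL2 mice and 14.1% in WT mice. Psmb10, which replaces Psmb7, was 32.7% of it in Elk-1-AAV R6/1 mice, 21.0% in control-AAV R6/1 mice and 27.7% in control-AAV WT mice, and 11.6% to 15.9% in the uninjected groups. The control-AAV R6/1 group was the lowest of the injected groups for all 3 pairs.

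**Figure D4:**
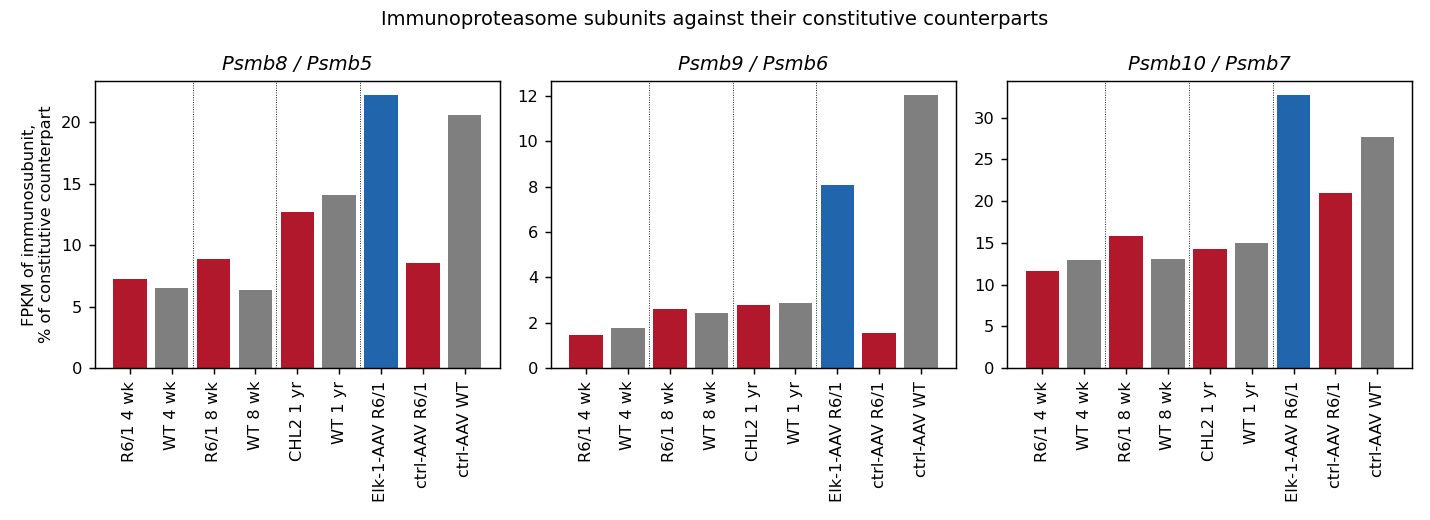
FPKM of each immunoproteasome subunit as a percentage of the FPKM of the constitutive subunit it replaces (vertical axes, from 0), in the 9 groups. Bars are ratios of single pooled values, without error bars; colours and dotted lines are as in the plot of group levels. Psmb9 stands at 8.05% of Psmb6 in Elk-1-AAV R6/1 mice, 1.55% in control-AAV R6/1 mice and 12.05% in control-AAV WT mice, against at most 2.89% in the uninjected groups.

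The 7 members on chromosome 17 have many neighbours in the 1.41 Mb interval, whose values are given beside theirs. In control-AAV R6/1 against control-AAV WT mice, 59 other listed genes lay in the interval, with a median change of 0.020, and 4 were called, all lower: H2-Aa, H2-Ab1, H2-Eb1 and the complement gene C4b. C4b had 5.36 FPKM in control-AAV R6/1 mice and 10.2 FPKM in control-AAV WT mice. In Elk-1-AAV R6/1 against control-AAV R6/1 mice, 56 others had a median change of 0.14, and C4b was the 1 called, at 19.4 FPKM in Elk-1-AAV R6/1 mice and 5.48 FPKM in control-AAV R6/1 mice. At 8 weeks 2 of 62 neighbours were called, both lower: Col11a2 and D17H6S56E-3. At 1 year Hspa1b, an inducible chaperone gene, was called higher and D17H6S56E-3 lower among 67.

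**Figure D5:**
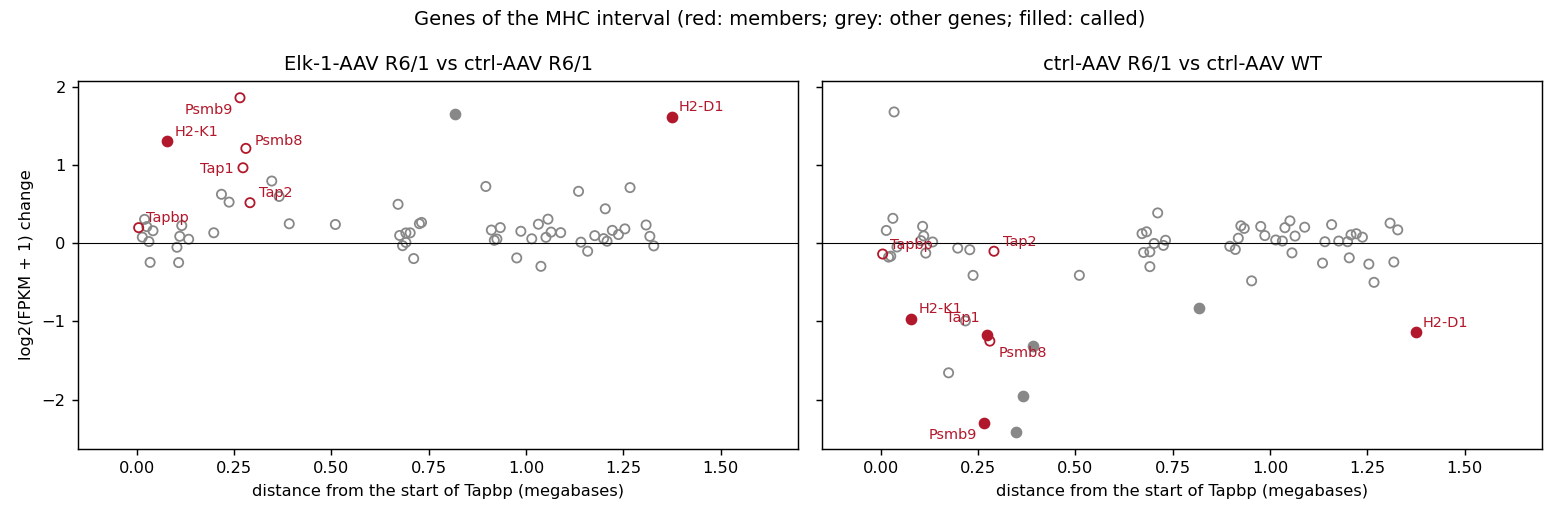
Change in log2(FPKM + 1) (vertical axis) of the listed genes of the MHC interval against distance from the start of Tapbp in megabases, for Elk-1-AAV R6/1 against control-AAV R6/1 (left) and control-AAV R6/1 against control-AAV WT (right). Red points are members and grey points other genes; filled points are called. Most grey points lie near 0, with medians of 0.14 (left) and 0.020 (right), while Psmb9, H2-K1, Psmb8, Tap1 and H2-D1 lie away from it. The members Tap2 (-0.10) and Tapbp (-0.14) lie near 0 on the right. Some grey points lie far out too, such as C4b at 1.65 (left), and H2-Ab1 at -2.42 and Rps18 at 1.68 (right).

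Over the 9 groups, the levels of each member were compared with the mean of all 8 after standardizing log2(FPKM + 1). Pearson r with that mean was 0.997 for H2-K1, 0.993 for Psmb8, 0.992 for B2m, 0.988 for H2-D1, 0.972 for Tap1, 0.946 for Psmb9, 0.933 for Tapbp and 0.820 for Tap2, each of which is part of the mean. Among 12524 other genes, the 5 with the most similar pattern were H2-Q4 (r = 0.988), St6galnac6 (r = 0.983), Lipt2 (r = 0.982), Rce1 (r = 0.981) and Tmem53 (r = 0.979). H2-Q4, another class I heavy chain and a paralog of the members, had 16.2 FPKM in Elk-1-AAV R6/1 mice, 4.45 FPKM in control-AAV R6/1 mice and 11.9 FPKM in control-AAV WT mice, and 1.29 to 2.98 FPKM in the uninjected groups. The 9 points share the split between injected and uninjected tables, so these values describe likeness only.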

How the data were processed

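Striatal RNA (TruSeq, per the labels' protocols) was analysed from 26 libraries; TopHat, Bowtie, Cufflinks, Cuffdiff and mm9 are named without versions in the submitters' processing notes. Strand use, annotation and depth per library are unknown here. For each of 5 comparisons the authors deposited a table with 1 pooled FPKM value per group and gene and no value per library. The deposited log2 fold change of these values, the test statistic (a score), the p-value and the q-value are the authors' own. Recomputing the Benjamini-Hochberg adjustment over each table returned the deposited q-values, and the lowest p is 5e-05. Between 11.5% and 13.3% of rows share their position with another gene.

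Groups were taken from the labels. Members were found by symbol; calls use the deposited q below 0.05. Medians use log2(FPKM + 1), which understates changes of low genes, over genes whose mean FPKM reached 0.5. Named beyond the members were up to 6 called genes per list and table, chosen for size of change, a fixed set of pathway genes, and the 5 most alike in pattern; H2-T23 in the Elk-1 table, Elk1, Xist, C4b, and the genes called in the MHC interval were named after their values were seen. The members and the 17 lists were chosen with earlier results of these data known. No list was tested, and some genes of the lists are not reported here. Computations used Python 3.11.15, numpy 2.4.6, pandas 2.3.3 and matplotlib 3.10.9 and were tested on simulated data. Alternatives tried were other q thresholds, pseudocounts and FPKM minimums, removal of small RNA rows, and recentring. Promoters came from RefSeq (GRCm38.p6).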

Additional observations from a re-analysis of the deposited data

How the results depend on the processing

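Adjusting the deposited p-values over genes whose mean FPKM reached 1, or without microRNA and small nucleolar RNA rows, changed none of the 40 member results, and subtracting the median change of all genes reversed none. With q below 0.01, 3 members were called in control-AAV R6/1 against control-AAV WT mice (Tap1 and Psmb9 were lost), and 0 in Elk-1-AAV R6/1 against control-AAV R6/1 mice, where the lowest q in the table is 0.0122. With q below 0.1, Psmb8 was called in both. The members' median change in the Elk-1 comparison was 1.31 with a pseudocount of 0.1 and 1.34 with none, against 1.21; the added 1 shrinks changes of low genes. Rescaling each group to a common total without small RNA rows, which shifted all changes by between -0.056 and 0.082 (log2), moved the 8-week median to 0.37, from 0.26, and the CHL2 median to -0.077, from -0.16 (B2m to -0.070, from -0.15, and H2-K1 to -0.048, from -0.13), and reversed the uncalled change of Tap2 in CHL2 mice to 0.027, from -0.056. At 8 weeks the deposited log2 fold change of B2m, which has no added 1, went to 0.43, from 0.35. Before rescaling, the 8-week median with no pseudocount was 0.32. The part of the added 1 in the 8-week move beyond this shift was not tested. No paired analysis was possible because the tables hold 1 pooled value per group and no value per library; leaving out single libraries could not be run for the same reason. Depth and the spread between libraries are unknown, and 2 of the groups at 10 weeks rest on 2 libraries each.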
